A study of Mus musculus with 12 samples.

Results

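Ribosome biogenesis and nucleolar genes were followed in mouse splenic B cells before and after activation. The members are 59 genes named by symbol, which encode RNA polymerase I transcription proteins and nucleolar factors that process precursor ribosomal RNA and assemble both ribosomal subunits. Of these, 58 were found by identifier among the 37991 genes of the count table, all 58 passed the filter on low counts, and all are protein coding. Noc2l did not match the annotation used and was not analysed here.

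Resting B cells came from the spleens of 8-week-old mice, by negative selection. In Runx1 c-k/o mice, exon 4 of Runx1 lies between loxP sites on both alleles, and a Cre transgene driven by the CD23 promoter deletes it in B cells from the transitional stage on. Cre-only control mice carried the same CD23-Cre transgene and intact Runx1, so that Cre was present in all 4 groups. RNA was sequenced from each genotype at rest (0 h) and after 3 h in culture with anti-IgM and IL-4, which engage the B cell receptor and the IL-4 receptor, with 3 biological replicates in each group. Resting and 3-h cells thus differ in culture as well as in the stimulus, and these cannot be told apart.

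Ribosomes are built in the nucleolus. RNA polymerase I transcribes a long precursor ribosomal RNA, small nucleolar ribonucleoproteins (snoRNPs) guide its chemical modification. The small subunit processome and a series of large subunit assembly factors fold and cut it while ribosomal proteins are added. Resting lymphocytes are small cells with few ribosomes, and growth on activation through the antigen receptor is known to involve nucleolar enlargement and ribosome production.

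Between 14442251 and 23641552 reads were counted on genes in each library. Levels are given as normalized CPM, counts scaled to library size and by the trimmed mean of M values (TMM), so they are shares of the counted RNA and not amounts per cell. In bulk RNA, fewer cells of a type and less RNA per cell cannot be told apart. Every member was well covered, with at least 231 counts in every library, against a floor of 3 counts that equals 0.129 to 0.199 normalized CPM. The 7 B cell markers summed to between 7978 and 9138 normalized CPM at rest and between 4580 and 5409 at 3 h, and 5 of them were called lower on activation in both genotypes. The 8 T cell markers summed to between 30.8 and 43.6 at rest and between 64.5 and 85.8 at 3 h, most of it from Lck. Of the 8, 3 exceeded 1 normalized CPM in a resting Cre-only library, 2 in a resting Runx1 c-k/o library and 1 at 3 h in each genotype. Cd4 had 33 to 66 counts at rest and 0 to 12 at 3 h. Cd3d, Cd3e and Cd3g, which encode chains of the T cell receptor complex, stayed under 1 normalized CPM. The sum of the 5 erythroid markers was 36.8 to 412 at rest against 12.3 to 204 after activation. The sum of the 8 myeloid markers was 216 to 424 normalized CPM at rest against 17.7 to 46.9 after activation. The part of these lists in the differences on activation was not tested. For Runx1 itself, the 3 resting Cre-only libraries held 83.5, 81.8 and 86.6 normalized CPM, and the resting Runx1 c-k/o libraries held 101, 95.6 and 103. At 3 h the Cre-only libraries held 38.5, 37.0 and 34.9, and replicates 1, 2 and 3 of Runx1 c-k/o cells held 47.3, 70.55 and 74.4. These counts cover all exons of Runx1, so the loss of exon 4 cannot be checked with them.

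A pair of libraries stood apart from their triplets. Replicate 2 of resting Runx1 c-k/o cells lay above all 5 other resting libraries for 57 of the 58 members. Replicate 1 of 3-h Runx1 c-k/o cells lay above all 5 other 3-h libraries for 44 members and below all of them for 7. Results that rest on these libraries are given with and without them.

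The first comparison asked how the members changed when Cre-only cells were activated. All 58 members were higher at 3 h than at rest, by 1.93-fold for Tcof1 up to 10.9-fold for Rrp1b, with a median of 4.90-fold (2.29 on the log2 scale). The median over all 13538 tested genes was 0.03 on the same scale. The median rise lay at the 95.7th percentile of all tested genes, and 51 members were among the top 10%. In 41 members the rise was at least 4-fold, and in Rrp1b, Nop16, Polr1b and Nop2 at least 8-fold. Together the members took 0.519% ± 0.00739 of all counts in resting Cre-only cells and 2.32% ± 0.0318 at 3 h (mean ± SD, n = 3). The 3 libraries of each time did not overlap for any member, and all 58 passed edgeR's quasi-likelihood test, with adjusted p-values of 0.000723 (Imp3) or smaller. Of all tested genes, 38.6% were called higher, and 43.8% had all 3 libraries at 3 h above all 3 at rest. With 1 factor of unwanted variation estimated by RUVs, the median rise was 1.70 on the log2 scale in edgeR and 57 members were called. The member not called was Imp3, at 0.07 (adjusted p = 0.592).

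**Figure D1:**
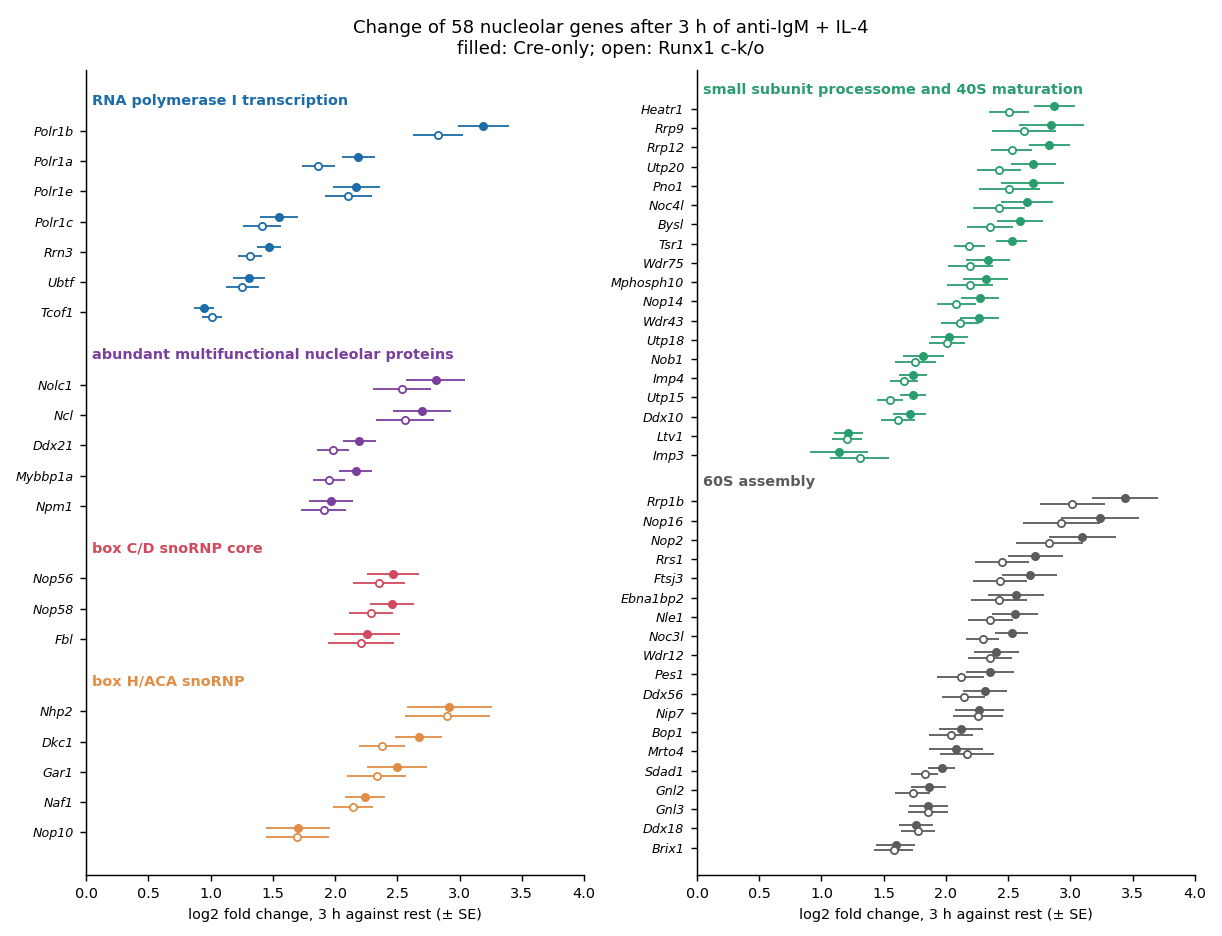
Log2 fold change between 3 h and rest for each of the 58 members, grouped by role, in Cre-only (filled points) and Runx1 c-k/o cells (open points), with bars for the standard error of the edgeR fit. All points lie to the right of 0, from 0.95 for Tcof1 to 3.44 for Rrp1b in Cre-only cells.

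The 7 RNA polymerase I genes had the lowest median rise of the 6 role groups, at 1.55 on the log2 scale, and the widest range. Tcof1, which encodes treacle, a nucleolar protein that assists ribosomal RNA gene transcription, was at 226, 214 and 221 normalized CPM in the 3 resting Cre-only libraries and at 427, 428 and 420.1 at 3 h. Ubtf, which encodes the upstream binding factor of ribosomal RNA genes, was at 215, 213 and 203 at rest and at 533, 493 and 538 at 3 h. These genes had the 2 highest levels per kilobase of exon in the group and rose by 1.93-fold and 2.48-fold (0.95 ± 0.08 and 1.31 ± 0.13 on the log2 scale, ± SE). The fitted rises of the catalytic subunits were larger. Polr1a, the largest subunit of RNA polymerase I, went from 82.9, 84.8 and 80.1 to 389.8, 368 and 369.6 normalized CPM, a rise of 4.55-fold. Polr1b, the second largest subunit, went from 38.3, 39.3 and 43.5 to 361, 379 and 366, a rise of 9.13-fold (3.19 ± 0.20, adjusted p = 5.36e-08). Polr1b lies on chromosome 2 (mm9, 128926731 to 128952330). Per kilobase of exon, the ratio of Polr1b to Polr1c, a subunit shared with RNA polymerase III, was between 0.455 and 0.565 in resting Cre-only libraries and between 1.48 and 1.6 at 3 h. The messages for subunits of one enzyme therefore changed in unequal proportions, and the ranges at rest and at 3 h did not overlap.

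The 5 abundant nucleolar proteins rose by a median of 2.19 on the log2 scale. Npm1, the histone chaperone nucleophosmin, was at 545, 558 and 519.6 normalized CPM at rest and at 2104, 2132 and 2106 at 3 h in Cre-only cells. Ncl, which encodes nucleolin and hosts small nucleolar RNAs in its introns, was at 705, 721 and 711 at rest and at 4450.0, 4706 and 4708 at 3 h. Nolc1, a chaperone of snoRNPs, was at 96.1, 92.7 and 95.8 at rest and at 655, 681 and 656 at 3 h. The rises were 3.91-fold for Npm1, the smallest of the group, 6.49-fold for Ncl and 7.0-fold for Nolc1. Npm1 (chromosome 11, 33052287 to 33063206 in mm9) has 4 near-identical copies elsewhere in the genome (at least 95% identity over at least 50% of the transcript), to which its reads could also align, and Ncl (chromosome 1, 88241294 to 88256030) has none. Npm1 and Ncl had the highest levels per kilobase of all members both at rest and at 3 h. The length used is that of all annotated exons of a gene merged, 2665 bases for Npm1 and 8257 for Ncl. At 3 h in Cre-only cells Npm1 and Ncl reached 793 ± 5.84 and 559.7 ± 18.0 normalized CPM per kilobase (mean ± SD), while the median member was at 72.1. The SD covers the spread between libraries and not the choice of length. Without division by length, Ncl was the higher of these genes.

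**Figure D2:**
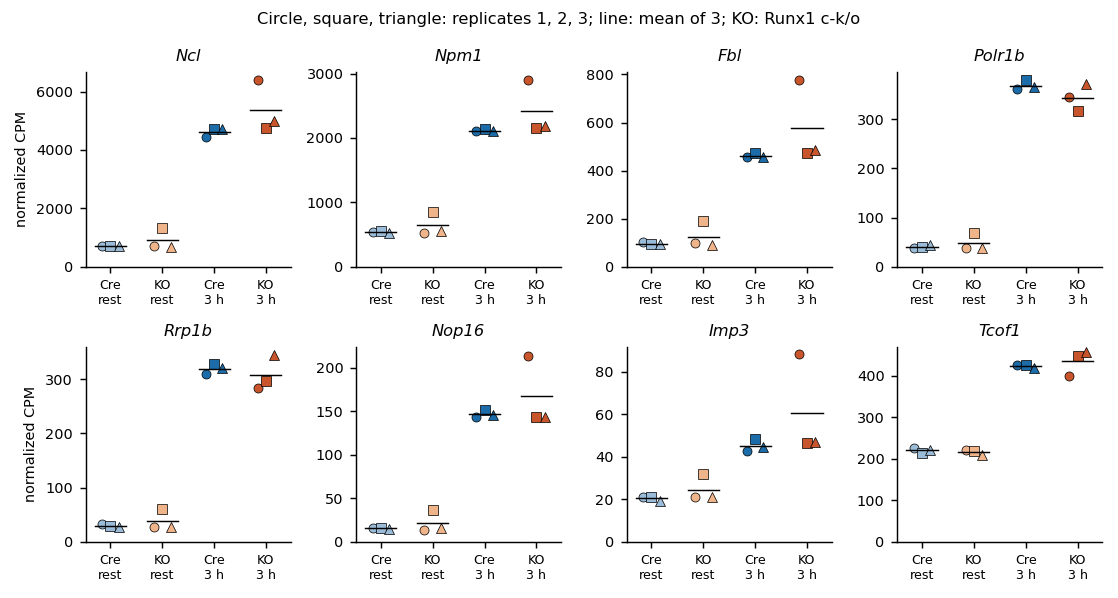
Normalized CPM (vertical axes, starting at 0) of 8 members in each of the 12 libraries, with replicates 1, 2 and 3 as circle, square and triangle and the mean of 3 as a line. Resting Runx1 c-k/o replicate 2 (square) lies above the other resting libraries for every gene shown but Tcof1, and 3-h Runx1 c-k/o replicate 1 (circle) above the other 3-h libraries for Ncl, Npm1, Fbl, Nop16 and Imp3.

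Box C/D snoRNPs guide ribose methylation, and the 3 of their core proteins that are members rose. Fbl, which encodes the methyltransferase fibrillarin, was at 101, 94.8 and 93.6 normalized CPM at rest and at 455, 474 and 456 at 3 h. Nop56, a scaffold protein of the particle, was at 134, 130.4 and 135 at rest and at 719, 739.9 and 744 at 3 h. Nop58, its partner in the scaffold, was at 94.2, 94.9 and 84.2 at rest and at 473, 525 and 506 at 3 h. Their rises were 4.78-fold, 5.52-fold and 5.5-fold, with standard errors of 0.18 to 0.27 on the log2 scale, and the differences between the 3 were not tested. Nop56 shares exon bases with 3 small nucleolar RNAs on its own strand and with Idh3b on the other strand, and Fbl has 1 near-identical copy elsewhere.

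The 5 genes of box H/ACA snoRNPs, which guide pseudouridylation, rose by a median of 2.50 on the log2 scale. Dkc1, which encodes the pseudouridine synthase dyskerin, was at 59.9, 62.6 and 59.1 normalized CPM at rest and at 374, 392 and 389.5 at 3 h. Nhp2, a core protein of the particle, was at 24.7, 23.5 and 22.6 at rest and at 177, 178 and 179.6 at 3 h. Nop10, the smallest core protein, was at 27.6, 29.8 and 27 at rest and at 93.1, 91.2 and 89.8 at 3 h. Nhp2 rose by 7.56-fold (2.92 ± 0.34) and Nop10 by 3.25-fold (1.70 ± 0.26), although both are core proteins of the same particle, and the difference between them was not tested. Exons of Nhp2 overlap Rmnd5b, and those of Dkc1 overlap Mpp1, both on the opposite strand. In all, exons of 16 members overlap a gene on the opposite strand, and the strand setting of the counting is not given in the sources used here, so reads of both may be mixed.

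The small subunit processome and small subunit maturation factors, 19 genes, rose by a median of 2.32. Heatr1, a large processome protein, was at 104, 108 and 109.5 normalized CPM at rest and at 767, 810.1 and 776 at 3 h. Rrp9, a protein of the U3 snoRNP, was at 28.2, 29.9 and 29.6 at rest and at 204, 217 and 210.0 at 3 h. Wdr43, a processome subunit, was at 111, 116 and 117 at rest and at 522, 593 and 538 at 3 h. These are rises of 7.32-fold, 7.2-fold and 4.82-fold. Ltv1, which acts late in small subunit maturation, was at 72.3, 67 and 66.9 at rest and at 155, 161 and 163 at 3 h, a rise of 2.32-fold. Imp3, which joins the processome with Imp4 and Mphosph10, was at 20.9, 21 and 19.4 at rest and at 42.7, 48.2 and 44.4 at 3 h, a rise of 2.21-fold (1.14 ± 0.23). Imp3 and Ltv1 had the smallest rises of the group. Mphosph10, Imp3 and Imp4 form a stable trimer, yet per kilobase of exon the ratio of Mphosph10 to Imp3 was between 0.386 and 0.430 at rest and between 0.910 and 0.967 at 3 h in Cre-only cells. Imp3 (chromosome 9, 56785307 to 56786204 in mm9) is the shortest member, with 898 exonic bases, and has 1 near-identical copy.

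The 19 large subunit assembly genes rose by a median of 2.35. Rrp1b, a nucleolar protein linked to large subunit precursors, was at 32, 28.8 and 27.4 normalized CPM at rest and at 309, 328 and 321 at 3 h. Nop16, a large subunit assembly factor, was at 16, 15.6 and 15 at rest and at 143, 151 and 146 at 3 h. Neither gene's libraries came near each other between the times, with rises of 10.9-fold (3.44 ± 0.27, adjusted p = 2.22e-07) and 9.42-fold (3.24 ± 0.31, adjusted p = 1.46e-06). Rrp1b (chromosome 17, 32173045 to 32199810 in mm9) had the lowest level per kilobase of all 58 members in resting Cre-only cells, at 3.82 ± 0.305 normalized CPM per kilobase, and ranked 49th at 3 h with 41.5 ± 1.30. Pes1, which with Bop1 and Wdr12 forms the PeBoW complex, was at 109, 105 and 94.4 at rest and at 528, 512 and 534 at 3 h. Gnl3, the GTP-binding protein nucleostemin, was at 118, 114 and 121 at rest and at 405, 438 and 434 at 3 h. Brix1, an early assembly factor, was at 43.9, 47.5 and 46.4 at rest and at 131, 150.0 and 136 at 3 h. Their rises were 5.11-fold, 3.62-fold and 3.02-fold, and that of Brix1 was the smallest of the group. Pes1 has 2 near-identical copies elsewhere.

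Promoter sequences were available for 50 of the 58 members in the RefSeq annotation of GRCm38.p6, as 250 bases before and 50 bases after the gene start. The motifs were searched on both strands, and matches are descriptions of letters, not binding sites. CACGTG, the E-box read by MYC and other basic helix-loop-helix factors, was present in 13 of the 50 members (26%). It was present in 12.1% of the 8817 tested genes with a promoter sequence and in 8.09% of all 27025 genes with one. A gene was counted if any of its promoter sequences held the motif. The related letters CACGCG were present in 32% of members against 20.0% of tested genes, and CCGGAAG, an ETS-type core, in 34% against 20.2%. The RUNX-type cores TGTGGT and TGCGGT were present in 12% and 16% of members against 15.8% and 11.2% of tested genes. CCAAT was present in 46% against 43.1%. An NRF1-type palindrome was in 2% of members against 2.40%, and a ZBTB33-type palindrome in 0 of 50 against 1.19%. A promoter can hold more than 1 of these motifs, and overlapping matches were counted for each. The members with CACGTG rose by a median of 2.27 on the log2 scale and the 37 without it by 2.34. Of the 14 matches, 9 lay after the gene start. Of the members given in every library by the rule, Pes1, Wdr43 and Ltv1 hold the motif, and windows of 30 bases around it are shown with the motif in capitals, to let its flanks be compared. Nop2, which encodes a ribosomal RNA methyltransferase, and Rrn3, the factor that brings RNA polymerase I to its promoter, were added after their values were seen, Nop2 as the member with the largest rise among those with the motif and Rrn3 as the one member with 2 matches.
Pes1 (chr11:3963965-3963994, + strand): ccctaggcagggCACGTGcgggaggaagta
Wdr43 (chr17:71616220-71616249, + strand): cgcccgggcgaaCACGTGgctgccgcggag
Ltv1 (chr10:13193092-13193121, - strand): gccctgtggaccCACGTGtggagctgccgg
Nop2 (chr6:125131811-125131840, + strand): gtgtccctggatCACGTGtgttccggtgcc
Rrn3, distal (chr16:13780472-13780501, + strand): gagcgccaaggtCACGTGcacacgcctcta
Rrn3, proximal (chr16:13780639-13780668, + strand): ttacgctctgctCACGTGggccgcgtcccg
In Pes1, Wdr43 and Ltv1 the motif begins 3, 18 and 29 bases after the gene start, inside the transcribed sequence. In Nop2 it begins 60 bases before the start, and in Rrn3 it begins 215 and 48 bases before the start. Before activation, Cre-only libraries held 327, 374 and 425 normalized CPM of Myc, and at 3 h they held 963, 1064 and 1014. Myc is 1 of a list of 12 early activation genes, of which 5 were called higher and 5 lower in Cre-only cells. Of all 13538 tested genes, 5231 were called higher and 4930 lower. The part of Myc in the rise of the members was not tested.

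The other genes of the pathway, 101 tested genes that are not members, gave the wider setting in Cre-only cells. Of these, 93 rose, 3 fell and 5 were not called, and their median was 1.61 on the log2 scale. Of all 13538 tested genes, 5231 were called higher and 4930 lower. By sub-list, 6 of 8 RNA polymerase I genes, 37 of 38 small subunit genes, 37 of 41 large subunit genes and 13 of 14 exosome and trimming genes rose. Cd3eap, a further RNA polymerase I subunit, rose the most, by 3.60. It was followed by Tbl3, a processome protein, with 2.76 and Ppan, a large subunit assembly factor, with 2.75. Those that fell were Zfp622, which acts on the large subunit in the cytoplasm, by 0.65, Gltscr2, a nucleolar protein also known as Nop53, by 0.56, and Taf1b, a subunit of the RNA polymerase I selectivity factor, by 0.32.

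The second comparison asked the same of Runx1 c-k/o cells. All 58 members rose there too, against 37.7% of all tested genes called higher, and in all 58 the 3 libraries at 3 h lay above the 3 at rest, as they did in 36.5% of all tested genes. The median rise was 2.18 on the log2 scale (4.53-fold), from 1.01 for Tcof1 to 3.01 for Rrp1b, and 38 members rose at least 4-fold. Without replicate 2 of resting Runx1 c-k/o cells the median was 2.42, and without replicate 1 of 3-h Runx1 c-k/o cells it was 2.01. With the RUVs factor it was 1.57 in edgeR and 57 members were called, with Imp3 at 0.17 (adjusted p = 0.210). The members took 0.514%, 0.754% and 0.498% of counts in replicates 1, 2 and 3 at rest and 2.58%, 2.28% and 2.37% at 3 h.

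**Figure D3:**
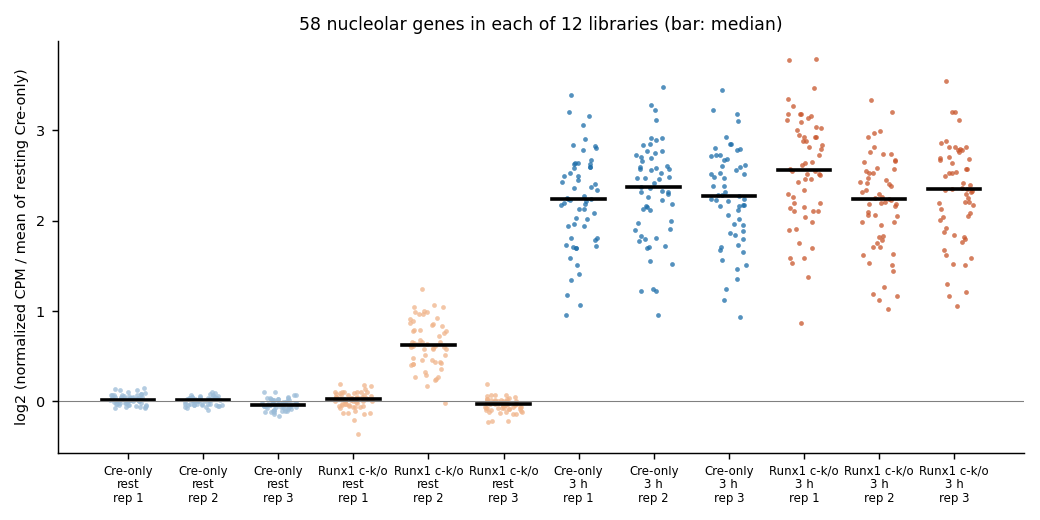
Each point is 1 of the 58 members in 1 of the 12 libraries, as log2 of its normalized CPM over its mean in resting Cre-only cells (vertical axis), and bars are medians over members. The resting libraries lie around 0 except Runx1 c-k/o replicate 2, whose members are raised, and all 3-h libraries lie well above.

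The abundant nucleolar proteins showed how the Runx1 c-k/o libraries lay. In the order of the replicate numbers, Ncl was at 719, 1338 and 682 normalized CPM at rest and at 6388, 4744 and 4999.9 at 3 h. Npm1 was at 531, 847 and 552 at rest and at 2905, 2148 and 2179 at 3 h. Nolc1 was at 96.8, 185 and 88.5 at rest and at 836, 642 and 669.8 at 3 h. For these 3 genes, replicates 1 and 3 at rest and replicates 2 and 3 at 3 h lay near the Cre-only libraries, and the other library of each triplet lay above.

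The RNA polymerase I genes varied in another way. Tcof1 was at 221, 218 and 210.1 normalized CPM at rest and at 401, 448 and 458 at 3 h. Ubtf was at 211, 271 and 201 at rest and at 634, 475 and 519.5 at 3 h. Polr1a was at 80.6, 92.8 and 86.5 at rest and at 248, 320.0 and 379 at 3 h. Replicate 2 at rest was not raised for Tcof1, and replicate 1 at 3 h was the lowest of its triplet for Tcof1 and Polr1a. Polr1b was at 38.5, 69.3 and 37.7 at rest and at 345, 316 and 371 at 3 h, with replicate 2 high at rest and replicate 1 in the middle at 3 h.

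Among snoRNP proteins, Fbl was at 96.9, 189 and 89.1 normalized CPM at rest and at 776, 473 and 484 at 3 h. Nop56 was at 143, 229.8 and 129.7 at rest and at 1088, 709 and 771 at 3 h. Nop58 was at 93.8, 146 and 92 at rest and at 634, 475 and 514 at 3 h. All 3 box C/D proteins were highest in replicate 2 at rest and in replicate 1 at 3 h. Dkc1 was at 62.6, 104 and 59 at rest and at 434, 349 and 391 at 3 h. Nhp2 was at 18.3, 49.3 and 22.4 at rest and at 325, 180.0 and 167 at 3 h. Nop10 was at 29.5, 50.4 and 25.5 at rest and at 160.0, 91.9 and 89.6 at 3 h. These 3 box H/ACA proteins were highest in the same libraries.

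Among the small subunit factors, Heatr1 was at 98.3, 143 and 101 normalized CPM at rest and at 541, 628 and 776 at 3 h. Rrp9 was at 30.1, 60.5 and 29.8 at rest and at 323, 207 and 215 at 3 h. Wdr43 was at 117, 171 and 113 at rest and at 654, 521 and 561 at 3 h. Heatr1 was lowest in replicate 1 at 3 h, where Rrp9 and Wdr43 were highest. Ltv1 was at 70.3, 82.8 and 64.8 at rest and at 198, 149.6 and 154 at 3 h. Imp3 was at 21, 31.7 and 21 at rest and at 88.3, 46.6 and 47.1 at 3 h. Its value in replicate 1 at 3 h lay above both other libraries of the triplet and above all Cre-only libraries at 3 h.

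Among the large subunit factors, Rrp1b was at 26.9, 60.5 and 27.1 normalized CPM at rest and at 284, 296 and 344 at 3 h. Nop16 was at 13.5, 36.8 and 15.7 at rest and at 214, 144 and 143 at 3 h. Pes1 was at 98.6, 173 and 108 at rest and at 638, 486 and 526 at 3 h. In all 3, replicate 2 at rest stood well above its triplet, and at 3 h replicate 1 was lowest for Rrp1b and highest for Nop16 and Pes1. Gnl3 was at 118, 156 and 101 at rest and at 539, 384 and 433 at 3 h. Brix1 was at 49, 61 and 46 at rest and at 198, 131 and 138 at 3 h. Both were highest in the same libraries as Nop16 and Pes1.

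The third comparison asked whether resting Runx1 c-k/o cells differ from resting Cre-only cells. No member was called by edgeR's quasi-likelihood test, against 1.49% of all tested genes. The smallest adjusted p was 0.432 (Bysl), and 2 members (Bysl and Rrs1) had an unadjusted p under 0.05, against 1496 of all 13538 tested genes. DESeq2 called 0 members, against 181 of all tested genes higher and 197 lower. The fitted differences were above 0 for 56 of 58 members, against 55.6% of all tested genes, with a median of 0.25 and a range from -0.03 (Tcof1) to 0.50 (Nop16) on the log2 scale. This shift rested on a single library. Without replicate 2 of resting Runx1 c-k/o cells, the median was -0.00130, 29 members lay above 0, and the range was -0.22 to 0.15. All 3 Runx1 c-k/o libraries lay above all 3 Cre-only libraries in 1 member, Polr1c, where 12% of all tested genes did so. Polr1c was named after its values were seen, as were the other genes outside the rule. With all libraries, the intervals of the differences (1.96 SE to each side) reached from 0.788-fold to 2.14-fold over the members.

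**Figure D4:**
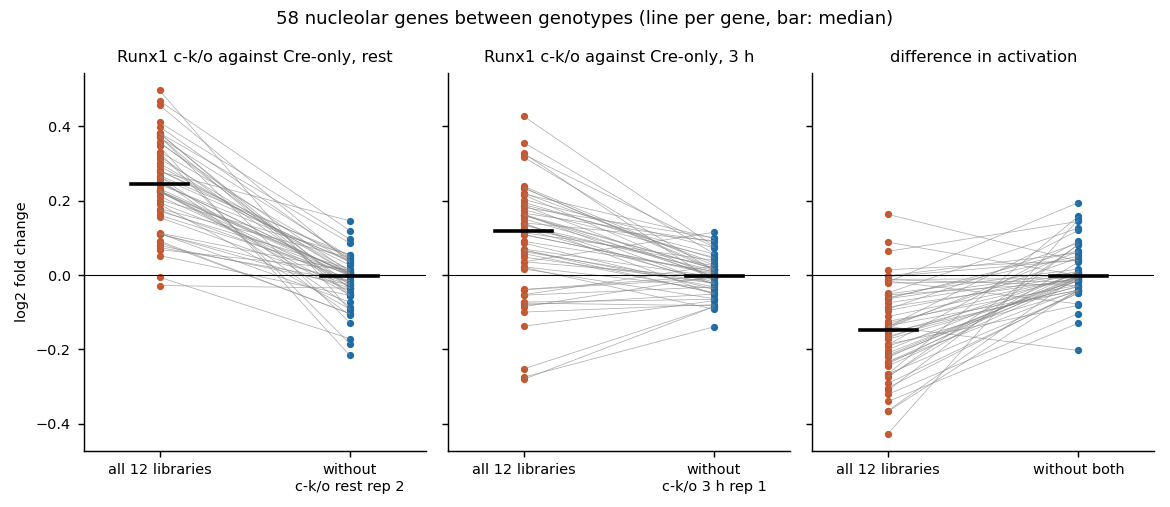
Log2 fold change of the 58 members between genotypes at rest, at 3 h, and as the difference in activation between genotypes (vertical axis), with all 12 libraries and without the libraries named below each panel. Lines join the same gene and bars are medians, which move from 0.25, 0.12 and -0.15 to about 0.

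The raised library was examined member by member. Replicate 2 of resting Runx1 c-k/o cells was the highest of its triplet for 57 of 58 members, where it was the highest for 50.5% of all tested genes. Its members lay a median of 1.54-fold above the mean of replicates 1 and 3, 34 of them over 1.5-fold against 11.6% of all tested genes, and 7 over 2-fold. The excess was larger for members that rose more on activation in Cre-only cells (Spearman's rho 0.74, Pearson's r 0.75 across 58 members). The members share these libraries and are not independent. The same correlation over all tested genes was not computed, so whether it is particular to the members was not tested. Tcof1, with the smallest rise on activation, was at 1.01-fold of the other replicates, and Nop16 was at 2.51-fold. In the same library, 8 of 12 early activation genes were the highest of their triplet, among them Myc, with 292, 499.9 and 343 normalized CPM across the triplet, and Egr2, with 74.6, 170.2 and 81.1. Others of that list did not follow, such as Fos with 692, 665 and 858. Of 6 plasma cell markers 4 were highest there, and of 8 myeloid markers 5, with a sum of 424 normalized CPM against 216 and 341 in replicates 1 and 3. Of the other lists, 3 of 8 T cell, 3 of 6 cycling cell, 2 of 7 B cell, 1 of 5 erythroid and 0 of 5 NK cell markers were highest there. The part of these in the raised members was not tested.

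The fourth comparison asked whether the genotypes differ after 3 h of activation. Again no member was called by edgeR's quasi-likelihood test, against 2.77% of all tested genes, and the smallest adjusted p was 0.345 (Polr1a). At an unadjusted p under 0.05 there were 0 members, against 2195 of all 13538 tested genes. DESeq2 called 0 members, against 423 of all tested genes higher and 284 lower. The median difference was 0.12 on the log2 scale, with 45 members above 0 where 51% of all tested genes were, from -0.28 (Utp20) to 0.43 (Imp3). Without replicate 1 of 3-h Runx1 c-k/o cells the median was -0.00352, 27 members lay above 0, and the range was -0.14 to 0.12. In 3 members, Ncl, Npm1 and Bysl, the Runx1 c-k/o libraries all lay above the Cre-only ones, against 9.49% of all tested genes. With all libraries, the intervals reached from 0.654-fold to 1.92-fold.

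Replicate 1 at 3 h differed from its triplet by gene length. Over all members it lay a median of 1.28-fold above the mean of replicates 2 and 3. The 19 shortest members, with at most 2623 exonic bases, all lay above, with a median of 0.47 on the log2 scale. The 19 longest, with at least 4071 bases, had a median of 0.05, and 12 of them lay above. The rank correlation with exonic length was -0.65 across the 58 members and -0.37 across the 13514 tested genes with a length, again over genes of one library. For replicate 2 of resting Runx1 c-k/o cells the same correlations were -0.25 and -0.31. In Cre-only libraries the correlation across tested genes lay between -0.05 and 0.06. Imp3, Nhp2 and Fbl, which are short, were high in 3-h Runx1 c-k/o replicate 1, and Polr1a, Heatr1 and Utp20, which are long, were low. Other long members lay above, such as Ncl (8257 bases) at 0.39 and Ubtf (6552 bases) at 0.35 on the log2 scale. This library was the highest of its triplet for 41.0% of all tested genes, and for 8 of 12 early activation genes, with Myc at 1474, 1119 and 1182 normalized CPM across the 3-h triplet. Of 8 T cell markers 7 were highest there, with a sum of 85.8 normalized CPM against 67.3 and 65.7 in replicates 2 and 3, most of it from Lck. So were 4 of 5 NK cell markers, with a sum of 4.70, and 4 of 5 erythroid markers, with a sum of 204. Of the other lists, 3 of 7 B cell, 3 of 8 myeloid, 1 of 6 plasma cell and 1 of 6 cycling cell markers were highest there. In replicate 1 of 3-h Cre-only cells, 7 of 8 T cell, 5 of 5 NK cell and 5 of 5 erythroid markers were also the highest of their triplet. This Cre-only library was the highest of its triplet for 32.1% of all tested genes and the lowest for 37.2%. In it 47 of the 58 members were the lowest of the triplet, by a small margin. Their median lay at -0.06 on the log2 scale against the mean of replicates 2 and 3. The part of length and of these genes in the members' values was not tested.

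**Figure D5:**
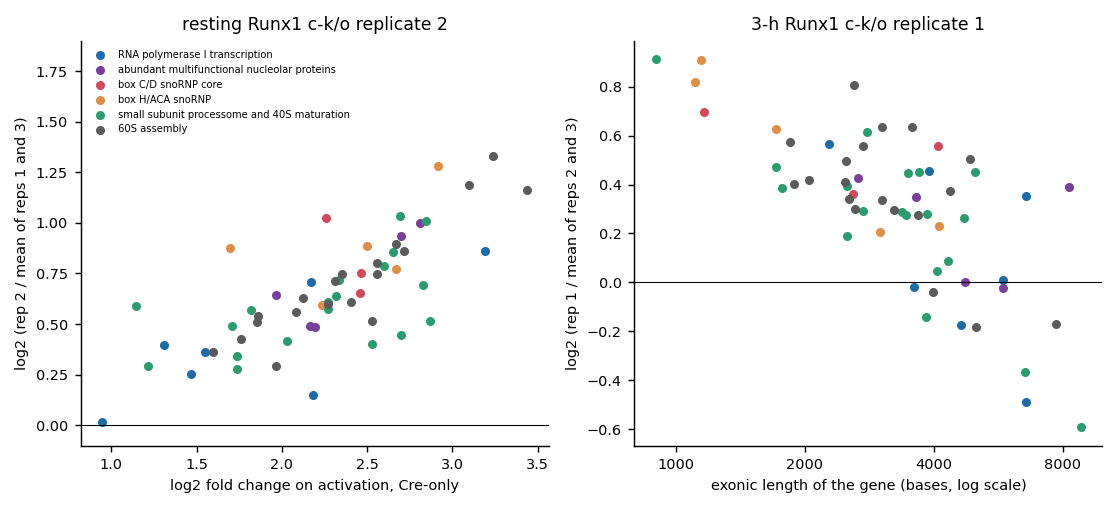
Left, the excess of resting Runx1 c-k/o replicate 2 over the mean of replicates 1 and 3 for each member (log2) against its log2 fold change on activation in Cre-only cells. Right, the excess of 3-h Runx1 c-k/o replicate 1 over the mean of replicates 2 and 3 (log2) against the exonic length of the gene (log axis); colours mark the 6 role groups, and the points rise to the right in the left panel and fall in the right panel.

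The last comparison asked whether the rise on activation differs between genotypes. No member was called in the interaction by edgeR's quasi-likelihood test, against 0.0813% of all tested genes, with a smallest adjusted p of 0.9995. At an unadjusted p under 0.05 there were 0 members, against 687 of all 13538 tested genes. DESeq2 called 0 members, against 58 of all tested genes higher and 21 lower. The fitted difference, Runx1 c-k/o minus Cre-only, was below 0 for 54 of 58 members and above 0 for 4 (Tcof1, Imp3, Ddx18 and Mrto4), where 42.8% of all tested genes were above 0, with a median of -0.15 on the log2 scale. Without replicate 2 of resting Runx1 c-k/o cells the sign turned, with a median of 0.11 and 45 members above 0. Without replicate 1 of 3-h Runx1 c-k/o cells alone the median was -0.22, with 1 member above 0. Without both libraries that stood apart, a choice made after seeing the data, the median was -0.00259, 26 members lay above 0, and the range was -0.20 to 0.19. With all libraries, the intervals reached from 0.459-fold to 1.82-fold over the members.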

How the data were processed

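RNA-seq counts of 12 libraries in 4 groups of 3 biological replicates were used; p-values measure the spread between these libraries. The authors made stranded poly(A) libraries, aligned paired reads with TopHat2 2.0.11 to mm9 and counted reads per Ensembl gene with featureCounts, and deposited these raw counts with no normalization. How strand and multiply aligned reads were counted is not given in the sources used here. The authors added ERCC spike-in RNA, which was not used here. The members and lists were chosen with earlier results of these data known.

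Counts were fitted in R 4.3.3 with edgeR 4.0.16 (filterByExpr with a minimum count of 10, TMM, robust quasi-likelihood, 1 term per group), and p-values were adjusted over 13538 genes by the Benjamini-Hochberg method (threshold 0.05). The floor of 3 counts covers counting error only. Totals are given with the levels. With 3 replicates against 3, an exact permutation test cannot go below 0.1. Values were given in every library for the 2 members of each role with the highest level per kilobase, the 2 with the highest and the 1 with the lowest log2 fold change in Cre-only cells. Near-identical copies (at least 95% identity over at least 50% of the transcript) were found in mm9 with minimap2 2.31. Over all tested genes, same-numbered resting and 3-h Cre-only libraries deviated together (correlations 0.276, 0.176 and 0.144), so the numbers may pair them. Over the members these correlations were 0.161, -0.0456 and -0.0288. Same-numbered Runx1 c-k/o libraries gave mixed signs over all tested genes (-0.254, -0.264 and 0.254). The largest correlation joined both libraries that stood apart, resting replicate 2 and 3-h replicate 1 of Runx1 c-k/o cells. It was 0.477 over all tested genes and 0.444 over the members, and its cause was not tested. The alternatives were DESeq2 size factors, library totals, other filters, the DESeq2 1.42.0 Wald test, 1 RUVs factor, replicate blocks, only the 2 groups compared and each library left out; after seeing the data, both libraries that stood apart were left out together. Scripts were tested on simulated data.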

Additional observations from a re-analysis of the deposited data

How the results depend on the processing

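All 58 members were called higher on activation in both genotypes under every alternative run other than the RUVs factor, and no member was called in the 3 genotype comparisons under any alternative run. With 1 RUVs factor, the median rise in Cre-only cells was 1.70 in edgeR and 1.60 in DESeq2 on the log2 scale, against 2.29, and in Runx1 c-k/o cells 1.57 and 1.5, against 2.18. Imp3 then lost its call in both genotypes and stood at -0.0369 in Cre-only cells in DESeq2. The cause was not tested. Scaling by library totals moved the median of all tested genes on activation in Cre-only cells from 0.03 to -0.10, and that of the members from 2.29 to 2.17.

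Leaving out 1 library at a time gave member medians of 2.24 to 2.34 for activation in Cre-only cells, 2.01 to 2.42 in Runx1 c-k/o cells, -0.00130 to 0.36 between genotypes at rest, -0.00352 to 0.20 at 3 h and -0.27 to 0.11 for the interaction. The values without replicate 2 of resting Runx1 c-k/o cells were 2.42, -0.00130 and 0.11 for activation in Runx1 c-k/o cells, rest and the interaction, and without both libraries that stood apart the median at rest was 0.00389. A replicate block gave medians of 2.29 and 2.18 on activation, 0.23 and 0.12 between genotypes and -0.14 for the interaction, and with the block within each genotype 2.29 and 2.19 on activation; neither pairing changed a call of a member. No group has more than 3 replicates, too few for a test of single samples that stand apart.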
